A study of Mus musculus with 27 samples.

Results

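The data described here are the read counts of 6 of the 27 fetal mouse brain libraries of the series: the 3 libraries of AKR/J fetuses on gestational day (d) 17 and the 3 libraries of Cav1-null fetuses on d15. AKR/J is an inbred strain. Cav1-null (B6.Cg-Cav1tm1Mls/J) is a congenic strain that carries a targeted deletion of Cav1, the gene of caveolin-1, a coat protein of the plasma membrane pits called caveolae. All 6 fetuses are labelled female, none is labelled as treated, the whole brain was used, and gestation was counted from the vaginal plug as d1. The series as a whole also covers C57BL/6J, with 3 libraries for each of 3 strains on d12, d15 and d17, and it was made to compare fetal brain development of a long-lived strain with that of short-lived strains.

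The groups were selected on the closeness of their overall expression in these same files, although they carry different day labels. Closeness within the pair is therefore a description and is given without a test. The calls of a test within the pair come from the same libraries and are given as a description too. Within the pair, strain and day change together: an effect of the AKR/J genome, of the missing Cav1 gene and of 2 more days of gestation cannot be told apart from these 6 libraries. Comparisons in libraries outside the pair were set beside the results for this reason. The one between the same strains, AKR/J d15 against Cav1-null d12, again has AKR/J at the later day. It therefore does not separate strain from day either. In whole tissue, fewer cells of a type and less RNA per cell cannot be told apart either.

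Over these days the fetal mouse brain passes from producing neurons to producing glia. Dividing progenitors (radial glia and intermediate progenitors) line the ventricles, newborn neurons leave the cell cycle and begin to form synapses, and astrocyte and oligodendrocyte precursor genes come on late. Gene expression in a whole brain therefore shifts steadily with age, and differences between strains add to that shift.

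The pair's libraries held 26363697 to 29090743 reads assigned to genes, within a range of 26363697 to 39759702 over all 27. Levels are given as CPM (read counts scaled to a common library size) after TMM, a method that equalises library composition. As a check of the labels, 37 genes were at 3 CPM or more in every AKR/J library of d12 and d15 and at 0.3 CPM or less in every Cav1-null library of d12 and d17. Each of the 3 AKR/J d17 libraries had all 37 at 1 CPM or more, and each of the 3 Cav1-null d15 libraries had 0. The 9 libraries labelled C57BL/6J, in contrast, each had between 9 and 21 of the 37, and 36 of the 37 genes were detected in some C57BL/6J libraries and not in others, so results from C57BL/6J are given with that in view. Xist, the RNA of the inactive X chromosome of female cells, stood between 4349 and 6240 CPM in the 6 libraries of the pair. It was at 3.38 CPM in AKR/J d15 replicate 3 and at 3.80 CPM in Cav1-null d12 replicate 2, although both are labelled female, and counts in AKR/J d15 and Cav1-null d12 are given with and without these 2 libraries.

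Cav1, the deleted gene, was measured first. It stood at 31.1, 28.1 and 30.7 CPM in the AKR/J d17 libraries and at 0, 0.193 and 0.0668 CPM in the Cav1-null d15 libraries. The groups did not overlap, and the log2 fold change was 8.33 ± 0.28 (SE). Over all days, Cav1 lay between 9.42 and 33.7 CPM in the 9 AKR/J libraries, between 10.5 and 41.1 CPM in the 9 C57BL/6J libraries and at 0.503 CPM or less in the 9 Cav1-null libraries. The splice junctions of Cav1 on chromosome 6 (GRCm39) gave the same picture. The junction at chr6:17306479-17307879 had 44, 44 and 34 reads in AKR/J d17 and the junction at chr6:17308045-17339111 had 71, 86 and 65 reads, and neither had a read in Cav1-null d15.

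The closeness that chose the pair was as follows. Over 20863 genes, the mean log2(CPM + 1) of AKR/J d17 correlated with that of Cav1-null d15 at Pearson r = 0.986, across genes, which are not independent replicates. The value for Cav1-null d17 was 0.987, for C57BL/6J d17 0.985, for AKR/J d15 0.984 and for Cav1-null d12 0.963. Between single libraries r lay between 0.980 and 0.985 across the pair and between 0.993 and 0.995 within its groups. A second scale placed every library between the Cav1-null d12 libraries (0) and the Cav1-null d17 libraries (1), by its median position over 3827 genes that changed at least 2-fold between those groups. The Cav1-null d15 libraries lay close together, at 0.591, 0.585 and 0.583. The AKR/J d17 libraries lay further on and further apart, at 0.723, 0.824 and 0.860, with no overlap, and AKR/J d15 lay at 0.265 to 0.297. The C57BL/6J d17 libraries lay at 0.889, 0.961 and 0.913. The groups of the pair were thus near each other but not at the same place. Cav1-null d15 was also not the nearest group to AKR/J d17 by either measure. Of the 3 AKR/J d17 libraries replicate 1 was the nearest to Cav1-null d15.

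**Figure D1:**
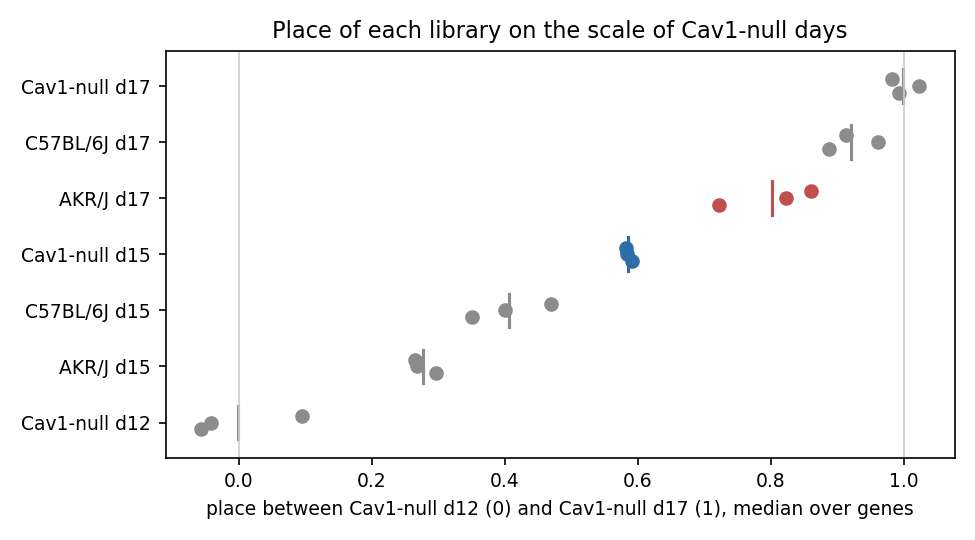
Place of each library (points, 3 per group) between the mean of Cav1-null d12 (0) and of Cav1-null d17 (1) on the horizontal axis, as a median over 3827 genes, with the group mean as a vertical line. The AKR/J d17 libraries (red) sit at 0.723 to 0.860 and the Cav1-null d15 libraries (blue) at 0.583 to 0.591.

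Of 20156 genes tested in the pair, edgeR's quasi-likelihood test called 2983 (14.8%), with p-values adjusted by Benjamini-Hochberg and a threshold of 0.05. In AKR/J d17, 1708 of them were higher and 1275 were lower than in Cav1-null d15. Most of these differences were small. The median absolute log2 fold change of the called genes was 0.59, while 792 differed by at least 1 on the log2 scale, 360 by at least 2 and 217 by at least 3. The 2 groups did not overlap in 2943 of the called genes and in 32.1% of all genes tested. Among annotated pseudogenes 192 of 890 were called, 141 of them higher in AKR/J d17, and among long noncoding RNAs 229 of 2408. The count of called genes was 674 when all 27 libraries shared one estimate of the spread, and it ran from 1894 without AKR/J d17 replicate 2 to 3814 without AKR/J d17 replicate 1. It was 1954 without AKR/J d17 replicate 3 and 1968 without Cav1-null d15 replicate 2.

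Whether these differences recurred between the same strains at other days was examined in AKR/J d15 against Cav1-null d12, which uses no library of the pair. AKR/J is at the later labelled day there too, so a recurrence does not separate strain from day. There 835 of 19890 genes were called (4.2%), 2.34% as higher and 1.86% as lower in AKR/J. Of the 2983 genes called in the pair, 2914 were tested in the earlier libraries and 663 of those were called with the same direction (22.8%), while 0 were called with the opposite one. They made up 79.4% of the 835. Large differences recurred most often. Of the tested genes with an absolute log2 fold change of 2 or more in the pair, 230 of 306 were called the same way (75.2%), against 102 of 1182 (8.63%) of those below 0.5. The earlier libraries varied more: their biological coefficient of variation was 27.6%, against 11.5% in the pair. Without the 2 libraries low in Xist, 112 genes were called the same way, while 2701 of 2930 tested genes kept the sign of the pair. The count was 1258 without Cav1-null d12 replicate 3, 304 without AKR/J d15 replicate 3, 277 without Cav1-null d12 replicate 1, 266 without Cav1-null d12 replicate 2 and 257 without AKR/J d15 replicate 1.

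The difference between the pair and the earlier pair was itself tested as an interaction over the 12 libraries. edgeR called 0 of 21545 genes, 1225 had an unadjusted p under 0.05, and DESeq2 called 32. No gene was therefore named as differing in the pair alone.

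**Figure D2:**
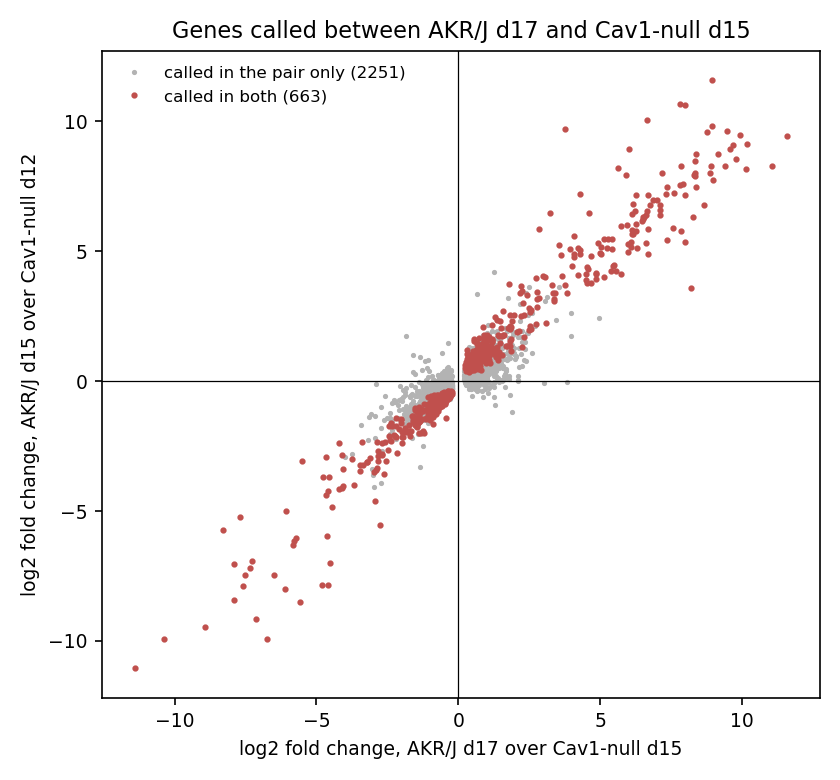
Log2 fold change of each gene called in the pair, AKR/J d17 over Cav1-null d15 (horizontal) against AKR/J d15 over Cav1-null d12 (vertical, other libraries). The 663 genes called in both comparisons (red) all lie in the lower left and upper right, and the genes with the largest differences are among them.

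Genes higher in AKR/J d17 in both pairs were led by Cav1 and by near-identical copies of other genes. The 10 with the largest differences under the naming rule were Cav1, Eno1b, Hmga1b, Zfp990, Vcp-rs, Rps3a2, Eif3j2, Slc7a11, Tagap and Masp2, out of 214 genes that met its conditions. Eno1b, a copy of the glycolytic enzyme gene Eno1 on chromosome 18, stood at 24.3, 16.4 and 22.97 CPM in AKR/J d17 and at no more than 0.0644 CPM in Cav1-null d15. Hmga1b, a copy of the chromatin protein gene Hmga1 at chr11:120653620-120655245, stood at 22.05, 17.0 and 16.9 CPM against at most 0.105 CPM. Zfp990, a zinc finger gene on chromosome 4, stood at 16.4, 17.2 and 18.6 CPM against at most 0.367 CPM. The naming rule required that the groups not overlap and that the gene be called in the earlier pair. In each of these genes the lowest AKR/J d17 library was far above the highest Cav1-null d15 library, and the same held in the earlier pair.

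Slc7a11 was the most highly expressed of the genes in this group that is not a copy. It encodes the cystine importer xCT, which supplies cystine for glutathione synthesis, and lies at chr3:49846975-50398070. It stood at 176, 147 and 140 CPM in AKR/J d17 and at 10.8, 11.1 and 12.4 CPM in Cav1-null d15, a 13.5-fold difference (log2 3.75 ± 0.10 SE). In AKR/J d15 against Cav1-null d12 the log2 fold change was 3.70 ± 0.19 (SE), with an edgeR adjusted p of 7.23e-05. Over all days it ranged from 69.3 to 201 CPM in AKR/J and from 10.4 to 25.7 CPM in Cav1-null, and from 8.86 to 128 CPM among the C57BL/6J libraries. Of 32 tested genes of the ATF4 amino acid stress list, 4 were called higher and 1 lower, against 8.47% and 6.33% of all genes, with a median log2 fold change of 0.08. The 4 became 2 with the replicate block and without AKR/J d17 replicate 2 or 3 or Cav1-null d15 replicate 1.

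Tagap and Masp2 followed at lower levels. Tagap, a GTPase-activating protein gene of T cells, stood at 12.8, 13.3 and 14.6 CPM against 0.907 to 1.70 CPM. Masp2, a serine protease gene of the lectin complement pathway, stood at 9.19, 10.1 and 8.04 CPM against 0.902 to 1.33 CPM. Both were called in the earlier pair, with log2 fold changes of 3.39 and 4.03 and edgeR adjusted p-values of 0.00129 and 0.00183 (0.0448 and 0.0662 without the 2 libraries low in Xist).

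Several of these genes have a close copy elsewhere in the genome, and the values of a copy and its parent moved in opposite directions. How reads with several matches were counted is not given in the sources used here, so a read of one copy may have been counted at the other. The parents below were added after their values were seen. Hmga1 stood at 13.3, 13.2 and 14.2 CPM in AKR/J d17 and at 33.3, 36.9 and 33.7 CPM in Cav1-null d15, while the sum of Hmga1 and Hmga1b was 32.2 ± 2.8 CPM against 34.7 ± 1.9 CPM (SD, n = 3). The reference transcripts of Hmga1 and Hmga1b were 99.8% identical over 1534 aligned bases, with 0 differences in the open reading frame of 324 bases. Eif3j1, a subunit gene of translation initiation factor 3, gave a sum with Eif3j2 of 36.4 ± 1.9 CPM against 41.3 ± 1.7 CPM. The sums of Eno1 with Eno1b (127 ± 20 CPM against 137 ± 11 CPM) and of Vcp with Vcp-rs (130 ± 21 CPM against 142.5 ± 9.4 CPM) also differed little between the groups, Vcp being the gene of an ATPase that extracts ubiquitinated proteins. The sum of Rps3a1 with Rps3a2, genes of a small ribosomal subunit protein, was 553 ± 49 CPM against 685 ± 43 CPM. The log2 ratio of the summed levels lay between -0.31 and -0.11 for these 5 pairs, whereas the copies alone differed by 4.50 to 8.76.

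The reference sequences show how little sets such copies apart. In the open reading frames of Rps3a1 and Vcp, as found in the annotated transcripts, 4 of 675 and 8 of 2421 bases differed from the copy. A stretch of 29 bases around one of them is shown for each, from the GENCODE vM39 transcripts, with the differing base in capitals.
Rps3a1: gaagtgagccttgcTgatctacagaatga
Rps3a2: gaagtgagccttgcCgatctacagaatga
Vcp: ggggagccaatcaaGcgagaggatgagga
Vcp-rs: ggggagccaatcaaAcgagaggatgagga
A read that covers no such base matches both genes equally in the reference.

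Of the genes lower in AKR/J d17 in both pairs, 178 met the conditions of the naming rule. The 10 with the largest differences were AA388235, Hba-a2, Rec8, Myo7a, Ooep, H2-D1, Srp54a, Akr1e1, H2-T24 and Dynlt1a. AA388235, at chr17:34197396-34202217, had 0 reads in all 3 AKR/J d17 libraries and stood at 10.5, 11.8 and 11.4 CPM in Cav1-null d15. Set against a floor of 3 reads over the 3 AKR/J d17 libraries, its level was at least 315-fold lower. It had 0 CPM in all 9 AKR/J libraries.

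Myo7a, an unconventional myosin gene of the inner ear and retina, stood at 2.65, 2.60 and 3.10 CPM in AKR/J d17 and at 31.9, 31.3 and 30.3 CPM in Cav1-null d15. That is an 11.2-fold lower level, and it recurred in the earlier pair with a log2 fold change of -3.23 ± 0.30 (SE) and an edgeR adjusted p of 0.00115 (0.0518 without the 2 libraries low in Xist). Rec8, the gene of a meiotic cohesin subunit, stood at 0.327, 0.462 and 0.555 CPM against 13.4, 9.50 and 9.12 CPM. Ooep, an oocyte-expressed gene, stood at 0.687, 1.24 and 1.046 CPM against 8.20, 8.76 and 10.7 CPM. Myo7a and Rec8 were at high levels in every C57BL/6J library (from 32.9 and from 9.22 CPM), while Ooep ranged there from 0.271 to 5.06 CPM.

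In the list of class I and interferon genes, the 3 called lower were class I members of the major histocompatibility complex on chromosome 17. H2-D1, which presents peptides to T cells, stood at 2.55, 1.28 and 1.83 CPM in AKR/J d17 and at 14.6, 13.3 and 13.7 CPM in Cav1-null d15. H2-T24 was at 1.21, 0.996 and 1.57 CPM against 7.40, 9.63 and 7.72 CPM, but the AKR/J d12 libraries stood at 8.09, 13.3 and 20.1 CPM, within or above the range of the Cav1-null libraries. H2-Q2 was near its floor in AKR/J d17 and at 0.601 to 1.16 CPM in Cav1-null d15, whereas Tap1, which carries peptides into the endoplasmic reticulum, was 2.36-fold higher in AKR/J d17. Of 33 tested genes of the class I and interferon list, 2 were called higher and 3 lower, and the list's median of -0.06 was close to that of all genes (-0.00). When single libraries of the pair were left out, 1 to 2 were called higher and 3 to 5 lower. The strains carry different haplotypes of this region, and how AKR/J reads matched the reference at polymorphic genes was not tested.

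Of the 10, Hba-a2 is given with the globins, and Srp54a, Akr1e1 and Dynlt1a remained. Akr1e1, an aldo-keto reductase gene, stood at 5.46, 4.55 and 4.67 CPM against 34.3, 32.2 and 37.6 CPM. Srp54a (signal recognition particle) and Dynlt1a (dynein light chain) belong to families of near-identical neighbours, and their values are uncertain for the reason given above. Without the 2 libraries low in Xist, 16 of the 20 named genes were still called in the earlier pair and all 20 kept their sign; Myo7a, Ooep, H2-D1 and Masp2 were the 4 that were not called.

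**Figure D3:**
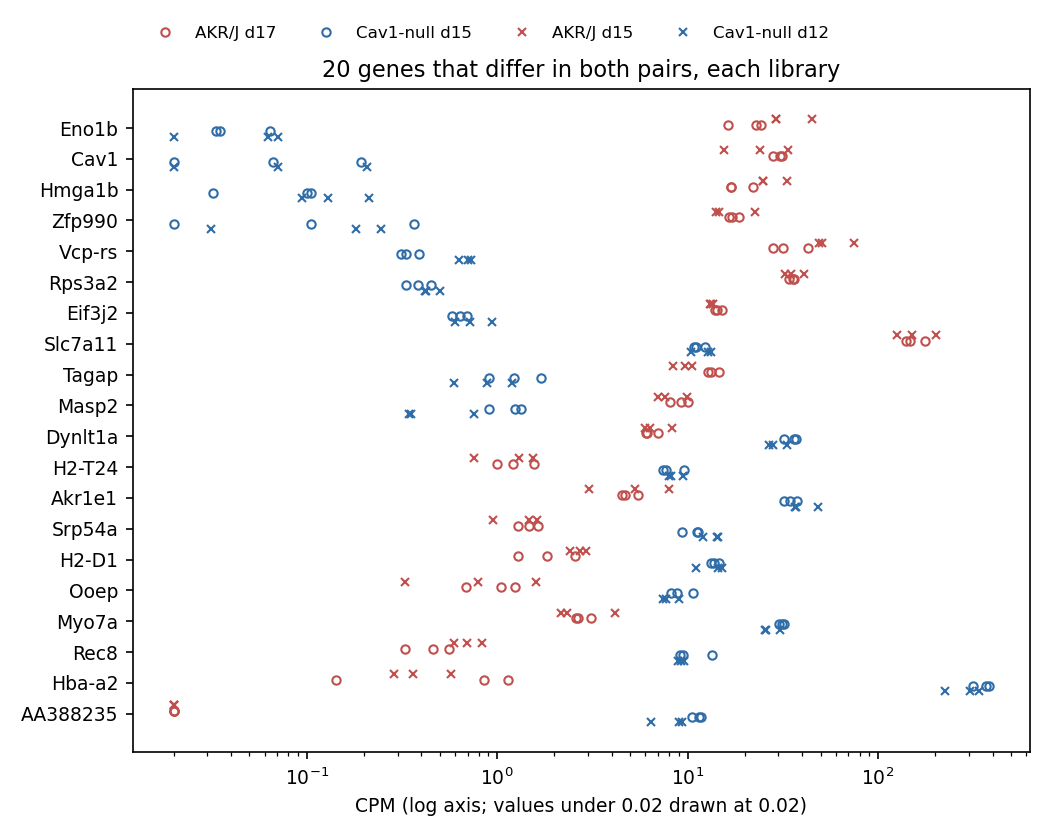
CPM of each library on a log axis for the 20 genes with the largest differences in both pairs, with AKR/J d17 and Cav1-null d15 as circles and AKR/J d15 and Cav1-null d12 as crosses; values under 0.02 are drawn at 0.02. AKR/J d17 and Cav1-null d15 libraries are separated in all 20 genes because the naming rule required it.

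A list of known strain variants, chosen with earlier results of these data known, was also counted. Eno1b, named above, is among its members called in both pairs. Of 40 tested, 14 were called higher and 7 lower in AKR/J d17, against 8.47% and 6.33% of all genes, and 9 of the 21 were called the same way in the earlier pair, or 5 without the 2 libraries low in Xist. Glo1, the glyoxalase gene that detoxifies methylglyoxal, stood at 89.5, 87.3 and 89.8 CPM against 41.5, 43.6 and 38.7 CPM. Wdfy1, an endosomal protein gene, stood at 101, 99.6 and 102 CPM against 44.4, 44.0 and 44.0 CPM. Alad, of the haem synthesis pathway, stood at 47.8, 50.8 and 46.5 CPM against 20.2, 18.7 and 17.4 CPM. Ide, the insulin-degrading enzyme gene, stood at 46.9, 43.3 and 41.9 CPM against 79.7, 77.7 and 77.4 CPM. Each of these 4 was also called in the earlier pair, with edgeR adjusted p-values of 0.00383, 0.000799, 0.000758 and 0.000424. Without the 2 libraries low in Xist the values were 0.0713, 0.0397, 0.0359 and 0.0249, so Glo1 was no longer called.

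Within 5 Mb of Cav1 on chromosome 6, 35 genes were tested and 9 were called, with Cav1 itself counted in both numbers. On the whole chromosome 182 of 1044 were called, and over all genes 14.8%. Gm15581, a long noncoding RNA annotated on the minus strand at chr6:17206822-17385603, spans Cav1. It had 2 reads in all in the AKR/J d17 libraries and stood at 2.62, 3.12 and 5.34 CPM in Cav1-null d15. It was at 1.95 to 5.34 CPM over the 9 Cav1-null libraries and at 0.0653 CPM or less in every AKR/J and C57BL/6J library. Whether the counting used the strand is not given in the sources used here, so transcripts of Cav1 and of Gm15581 over shared bases cannot be told apart. Met, a growth factor receptor gene next to Cav1, stood at 6.51, 10.1 and 8.59 CPM against 4.33, 4.41 and 3.14 CPM. Kcnd2, a potassium channel gene, was 1.47-fold higher and Fam3c 1.22-fold higher in AKR/J d17, the latter a call that was lost without any single library of the pair. Lsm8 was 1.27-fold lower, 2610001J05Rik 1.41-fold lower and 1110019D14Rik 4.82-fold lower, and the pseudogene Gm5874 stood at 0.462 to 0.523 CPM against 0 reads. Lsm8 was not called without AKR/J d17 replicate 2 or Cav1-null d15 replicate 2, nor 2610001J05Rik without Cav1-null d15 replicate 3. With all 27 libraries in 1 model, Met, Kcnd2, Fam3c, Lsm8 and 2610001J05Rik were not called. Cav2, the partner of Cav1 in caveolae, lay at 12.9, 14.4 and 15.9 CPM against 14.7, 18.6 and 23.5 CPM, which overlapped, and of 8 tested genes of caveolae Cav1 was the one called.

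The labels of the pair differ by 2 days, and genes that change with age were examined next. In C57BL/6J, 2594 of 19888 genes were called between d15 and d17 (13%), 7.46% as rising and 5.58% as falling. Of the genes called in the pair, 2875 were tested there. The same direction, with AKR/J d17 on the side of the later day, was called for 812 (28.2%) and the opposite direction for 45. These 812 made up 31.3% of the 2594. The share was highest for moderate differences, 407 of 1009 genes between 0.5 and 1 on the log2 scale (40.3%), and lowest for large ones, 15 of 261 at 2 or more (5.75%). The count fell to 112 without C57BL/6J d17 replicate 3, 150 without C57BL/6J d15 replicate 2, 212 without C57BL/6J d15 replicate 1 and 391 without C57BL/6J d15 replicate 3. It was 491 and 496 without AKR/J d17 replicates 2 and 3, and 534 without Cav1-null d15 replicate 2. In the Cav1-null libraries of d12 and d17, where 44% of genes were called, 1705 of 2816 tested pair genes were called toward the later day and 143 toward the earlier one.

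Of 2835 genes called in the pair and tested in both other comparisons, 17.8% were called the same way in the earlier pair only, 709 between the C57BL/6J days only, 100 in both and 1522 in neither. The median absolute log2 fold change in the pair was 1.11 for the first set, 0.54 for the second, 0.72 for the third and 0.49 for the fourth. AKR/J is at the later labelled day in both pairs, so these sets do not divide strain from day. A comparison of Cav1-null with C57BL/6J on d12 and d17 added little at this spread. edgeR called 5 of 21675 genes there (0.0231%), 0.0185% as higher and 0.00461% as lower in C57BL/6J, 4 of them genes called in the pair with the same direction, while 6075 had an unadjusted p under 0.05, and DESeq2 gave 337 pair genes with the same direction. The count of 4 became 462 without C57BL/6J d17 replicate 2 and 216 without C57BL/6J d12 replicate 3.

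The gene lists that follow were counted in the same 6 libraries, where 8.47% of all genes were called higher and 6.33% lower in AKR/J d17. With all 27 libraries in 1 model fewer genes were called in most of these lists. For example, 5 cell cycle genes and 1 progenitor gene were called lower there, 3 astrocyte, 3 microglial and 2 glycolysis genes higher, 2 DNA methylation genes lower, and 0 were called in the lists of synaptic vesicles, glutamate receptors, GABA receptors, ion channels and oligodendrocytes.

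Most cell cycle genes were called lower in AKR/J d17. Of 41 tested, 32 were called lower and 0 higher, with a median log2 fold change of -0.60 against -0.00 over all genes. Kif11, a mitotic spindle motor, stood at 45.8, 27.3 and 21.5 CPM in AKR/J d17 and at 75.2, 77.2 and 73.1 CPM in Cav1-null d15. Mki67, the common marker of dividing cells, stood at 126, 97.3 and 80.99 CPM against 143, 143 and 161 CPM. Top2a, a topoisomerase of dividing cells, stood at 109, 71.2 and 53.4 CPM against 131, 140 and 137 CPM. In all 3 genes AKR/J d17 replicate 1 was the nearest to Cav1-null d15, as it was on the scale of days. The summed level of the list was 895 to 1367 CPM against 1708 to 1737 CPM. Between the C57BL/6J days 29 of the 32 fell as well, and 3 (Kif11, Mcm6 and Pcna) were called in the earlier pair, or 0 without the 2 libraries low in Xist. The number called lower ranged from 20 to 35 when single libraries of the pair were left out.

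Genes of neurogenic progenitors followed in part. Of 25 tested, 8 were called lower and 3 higher, and 5 to 16 were lower when single libraries of the pair were left out. Neurog2, a transcription factor that commits progenitors to become neurons, stood at 35.0, 22.7 and 24.6 CPM against 53.5, 43.7 and 50.7 CPM. Eomes, of intermediate progenitors, stood at 32.3, 22.8 and 21.2 CPM against 43.6, 39.5 and 39.5 CPM. All 8 that were lower, among them Pax6 of radial glia, also fell between the C57BL/6J days. The 3 that were higher were Slc1a3, Ednrb and Tnc, which are also expressed in astrocytes, with log2 fold changes of 0.28 to 0.36. With single libraries left out 1 to 3 were higher, and Tnc was not called without AKR/J d17 replicate 2 or Cav1-null d15 replicate 2. Of 12 genes that set the timing of neural progenitors, 4 were lower (2 to 5 with single libraries left out) and 0 higher, Hmga1 (log2 -1.35) among them, whose value depends on the copy described above.

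Among synaptic genes, more were called higher than lower in AKR/J d17, although most GABA receptor genes but only a minority of glutamate receptor and ion channel genes were called. Of 28 tested synaptic vesicle genes, 15 were called higher and 0 lower, of 31 glutamate receptor and scaffold genes 9 and 1, of 17 GABA receptor genes 12 and 0, and of 26 ion channel genes 10 and 0. The number called higher ran from 5 to 17, 6 to 14, 8 to 13 and 7 to 10 in these lists when single libraries of the pair were left out. The list medians were 0.26, 0.20, 0.41 and 0.16. Gabra5, a subunit of extrasynaptic GABA-A receptors, stood at 43.0, 51.9 and 57.8 CPM against 29.3, 29.8 and 31.1 CPM. Gabrg1, another subunit, stood at 37.9, 48.6 and 49.9 CPM against 24.8, 23.6 and 31.4 CPM. Between the C57BL/6J days 3 of the 15 vesicle, 4 of the 10 glutamate receptor, 8 of the 12 GABA receptor and 5 of the 10 channel genes moved the same way. Of the 12 GABA receptor genes 5 were called in the earlier pair, or 0 without the 2 libraries low in Xist. Grm5, a metabotropic glutamate receptor gene, stood at 119, 128 and 144 CPM against 80.7, 85.7 and 79.9 CPM. Sv2c, a vesicle glycoprotein gene, had the largest value of the vesicle list (2.12-fold), and Hcn2, a pacemaker channel gene, of the channel list (1.96-fold). Grin2b, the NMDA receptor subunit typical of immature synapses, was the member called lower, at 156, 159 and 137 CPM against 189, 179 and 174 CPM, a call that was lost without AKR/J d17 replicate 3 or without Cav1-null d15 replicate 1 or 2.

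Astrocyte genes were mostly higher in AKR/J d17. Of 23 tested, 12 were called higher and 1 lower, with a median log2 fold change of 0.66. Aqp4, the water channel of astrocyte end feet, stood at 15.7, 26.8 and 34.8 CPM in AKR/J d17 and at 4.40, 4.73 and 3.87 CPM in Cav1-null d15. Itih3, which stabilises the extracellular matrix, stood at 4.35, 5.08 and 6.99 CPM against 0.523, 1.13 and 1.07 CPM. Gfap, the intermediate filament of astrocytes, stood at 1.70, 4.62 and 6.21 CPM against 0.872, 1.26 and 1.90 CPM, which overlapped in AKR/J d17 replicate 1. Hepacam, an adhesion molecule of glia, stood at 10.04, 14.1 and 15.0 CPM against 5.37, 5.31 and 3.44 CPM. Of the 12 genes, 7 also rose between the C57BL/6J days: Aqp4 stood at 2.19 to 3.34 CPM in C57BL/6J d15 and at 35.8 to 50.5 CPM in C57BL/6J d17. Ncan, a proteoglycan gene, was the member called lower (1.26-fold).

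Of 18 oligodendrocyte lineage genes, 7 were called higher and 0 lower, and the others did not pass the test. Olig1, a transcription factor of the lineage, stood at 25.5, 27.4 and 26.1 CPM against 15.4, 14.3 and 10.7 CPM, and Pdgfra, the receptor that marks oligodendrocyte precursors, at 24.5, 24.6 and 27.5 CPM against 17.0, 21.2 and 13.9 CPM. Mbp, of mature myelin, lay at 22.4 to 24.7 CPM against 18.9 to 20.2 CPM and was not called.

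Genes of neuronal identity were called in both directions. Of 21 genes of newborn neurons, 2 were called higher and 2 lower, and Tubb3 lay at 856, 675 and 636 CPM against 796, 748 and 645 CPM. Of 20 cortical layer genes, 3 were higher and 3 lower. Fezf2, of deep-layer subcortical projection neurons, stood at 51.5, 41.6 and 37.7 CPM against 71.6, 66.6 and 72.0 CPM. Of 23 genes of GABAergic neurons, 3 were higher and 3 lower, Dlx1 being lower (154, 130 and 89.3 CPM against 204, 204 and 205 CPM). Of 27 neuropeptide and neuromodulator genes, 6 were called higher and 0 lower, of 21 forebrain patterning genes 0 and 4, and of 29 midbrain and hindbrain genes 1 and 3. With single libraries left out, the number called lower ran from 1 to 12 in the GABAergic list and from 1 to 11 in the forebrain patterning list. In both it was highest without AKR/J d17 replicate 1 and lowest without AKR/J d17 replicate 2 or 3. The GABAergic list was equally low without Cav1-null d15 replicate 2. The forebrain patterning list was equally low without Cav1-null d15 replicate 1 or 3. The neuropeptide genes called higher ran from 3 to 9 and the genes of newborn neurons from 0 to 4. The midbrain and hindbrain genes called lower ran from 1 to 3, and the cortical layer genes from 2 to 4 in each direction.

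**Figure D4:**
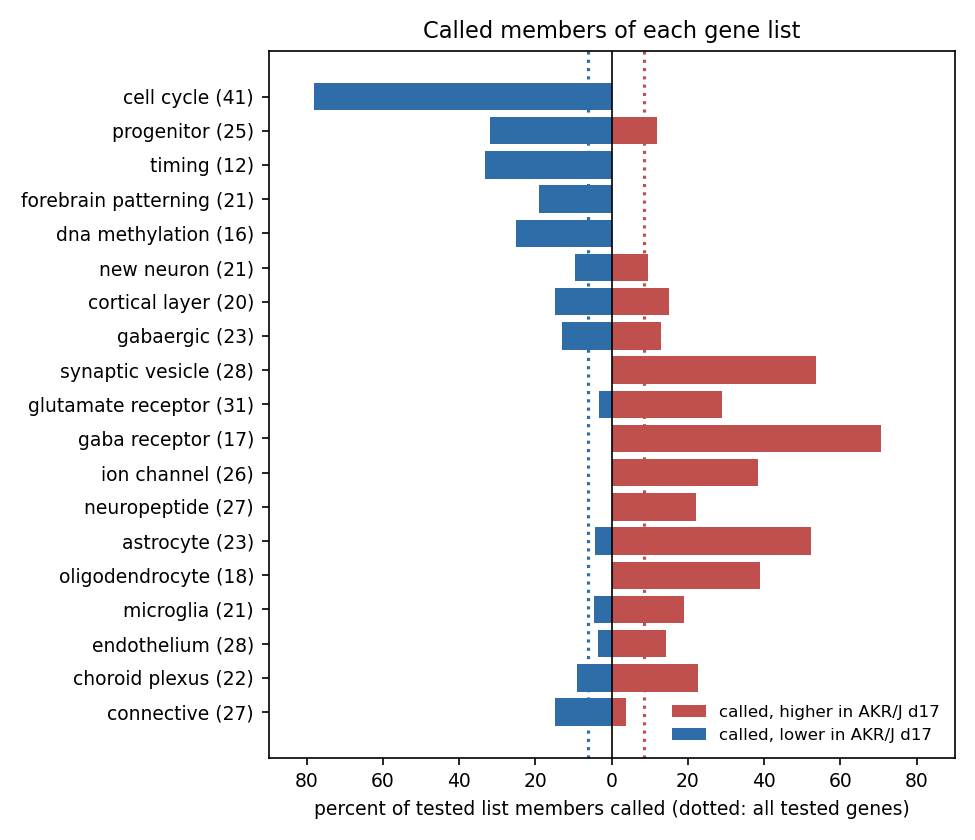
Percent of the tested members of each gene list (number tested in brackets) that were called higher in AKR/J d17 (red, to the right) or lower (blue, to the left), with dotted lines at the 8.47% and 6.33% of all tested genes. Cell cycle genes were called lower in 32 of 41, and GABA receptor, synaptic vesicle and astrocyte genes were called higher in 12 of 17, 15 of 28 and 12 of 23.

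Levels of adult globin transcripts differed among the libraries. Summed over the 4 genes of that list they were 3342 to 17952 CPM in AKR/J d17 and 2820 to 3490 CPM in Cav1-null d15. Adult beta-globin Hbb-bs stood at 6109, 2283 and 12981 CPM in AKR/J d17 and at 1532, 1925 and 1844 CPM in Cav1-null d15. Hba-a1 and Hba-a2, copies of adult alpha-globin whose reference transcripts were 99.8% identical, again lay on opposite sides. Hba-a2 stood at 0.850, 0.142 and 1.14 CPM in AKR/J d17 against 317, 383 and 370 CPM, and the 2 genes together at 2391, 757 and 3133 CPM against 741, 903 and 882 CPM, so that the summed level of AKR/J d17 replicate 2 fell within the range of Cav1-null d15. Of 17 tested erythroid genes 3 were called higher, among them Alas2 (106, 45.4 and 194 CPM against 43.0, 53.4 and 49.1 CPM), and 0 of 3 embryonic globin genes were called. The erythroid count ran from 1 to 5 when single libraries were left out, and Alas2 was not called without AKR/J d17 replicate 3, without any one Cav1-null d15 library or by DESeq2. Whether the amount of blood differed, and its part in the other differences, was not tested.

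Lists of other cell types of the brain, and of tissues that a dissection can carry along, were counted too. Of 28 endothelial genes 4 were called higher and 1 lower (summed level 325 to 398 CPM against 313 to 342 CPM), of 21 microglial genes 4 and 1 (127 to 139 CPM against 96.3 to 113 CPM), and of 22 choroid plexus genes 5 and 2 (653 to 727 CPM against 519 to 635 CPM). The summed levels of the microglial and choroid plexus lists did not overlap between the groups, while those of the endothelial list did. With single libraries left out, the numbers called higher ran from 3 to 5 for choroid plexus, 3 to 6 for microglia and 3 to 5 for endothelium, and choroid plexus had 3 without AKR/J d17 replicate 2 or 3 or Cav1-null d15 replicate 1 or 3. P2ry12, a receptor of resident microglia, stood at 12.4, 13.2 and 14.5 CPM against 5.13, 6.25 and 6.48 CPM and was also called in the earlier pair (edgeR adjusted p = 0.0350, or 0.271 without the 2 libraries low in Xist). Aif1, of microglia, was 2.70-fold higher. C1qb, a complement gene of the same cells, was 1.41-fold lower, a call that was lost without any single library of the pair. Of 27 connective tissue genes 1 was higher and 4 lower (320 to 408 CPM against 344 to 477 CPM), of 17 skeletal muscle genes 2 and 1, of 17 epidermal genes 0 and 0, and of 11 eye genes 1 and 1. With single libraries left out, 2 to 4 connective tissue genes were lower, with 2 without AKR/J d17 replicate 2 or Cav1-null d15 replicate 2, 1 to 4 muscle genes were higher and 0 to 2 epidermal genes were lower. None of 8 tested pituitary genes was called: its hormone genes Gh, Prl and Cga were at 0.0711 CPM or less in the pair, and Pomc lay at 0.883 to 1.67 CPM against 1.97 to 2.93 CPM. Of 14 tested Hox genes 0 were called, although their summed level ranged from 23.5 to 118 CPM in AKR/J d17 and from 2.40 to 46.2 CPM in Cav1-null d15. Their median log2 fold change was 1.38, with 13 of the 14 above 0, and 5 were called higher without AKR/J d17 replicate 1 or without Cav1-null d15 replicate 2, and 16 of 22 with no filter on low counts. The part of these tissues in the differences was not tested.

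Genes with general cellular roles were counted last. Tdg, the thymine DNA glycosylase gene of base excision repair and DNA demethylation, stood at 36.0, 30.4 and 26.1 CPM in AKR/J d17 against 80.6, 86.4 and 82.1 CPM, and Mbd4, of the same repair route, at 12.2, 12.3 and 11.04 CPM against 20.3, 21.4 and 21.2 CPM. A copy of Tdg, the pseudogene Tdg-ps2, stood at 23.1, 20.9 and 16.5 CPM in AKR/J d17 and at 0.0349, 0 and 0.0334 CPM in Cav1-null d15. How reads were divided between these copies was not tested. Tdg and Mbd4 were also lower in the earlier pair, with edgeR adjusted p-values of 0.00225 and 0.0484, which became 0.0763 and 0.399 without the 2 libraries low in Xist, and of the 16 tested genes of DNA methylation 4 were lower, or 2 without AKR/J d17 replicate 2, and 0 higher. Hspa8, the constitutive heat shock chaperone, stood at 649, 560 and 542 CPM against 1064, 1008 and 1008 CPM and Hspe1 was lower too, the 2 called among 20 heat shock genes. Of 33 genes of glycolysis and hypoxia 6 were higher and 5 lower, or 1 lower without AKR/J d17 replicate 2 or 3 or Cav1-null d15 replicate 1 or 2. Of 25 cholesterol genes 5 were higher and 1 lower. Of 31 imprinted genes 3 were higher, Ndn among them (1.51-fold), and 6 lower, Dlk1 among them (1.67-fold). The number lower ran from 2 to 8 when single libraries were left out, with 2 without AKR/J d17 replicate 2 or Cav1-null d15 replicate 2 or 3, and Dlk1 lost its call without Cav1-null d15 replicate 2. Of 25 immediate early genes 2 were higher and 2 lower, of 25 splicing regulators 0 and 2, of 10 mitochondrially encoded genes 2 and 1, of 15 monoamine genes 1 and 1, and of 14 genes of extraembryonic tissue 2 and 2, shares to be set beside 8.47% and 6.33% of all genes. With single libraries of the pair left out, the mitochondrially encoded genes called higher ran from 0 to 9 and the cholesterol genes from 3 to 5. Extraembryonic genes called higher ran from 0 to 3 and immediate early genes from 1 to 2. The genes called lower ran from 1 to 4 among heat shock genes, 2 to 4 among immediate early genes, 0 to 5 among splicing regulators and 1 to 3 among extraembryonic genes.

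The junction table gave a view of transcript structure that gene counts do not. A junction was taken as all or none in the pair when it had at least 10 reads in each library of one group and 0 in each library of the other. Of 31899 junctions with at least 10 reads in each library of a group, 116 were seen in AKR/J d17 alone and 170 in Cav1-null d15 alone. Of these, 33 and 67 met the same condition in the earlier pair. The total of junctions that met it there is not given here, so no background share stands beside these counts. The authors' filter removed junctions with reads of several matches or with short overhangs. Whether it acted on each library alone is not stated, so a 0 may also stand for a junction that was filtered out.

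To set aside junctions of genes that were merely silent, those were kept that had at least 5 reads in all 9 libraries of one strain and 0 in all 9 of the other, and that shared a splice site with a neighbour junction carrying at least 10 reads in each pair library of the group without it. This condition was set after the values were seen. It left 13 of 69 junctions, in 12 genes, of which 3 were seen in AKR/J and 10 in Cav1-null. In BC051226 on chromosome 17, the 2 strains used different donor sites 28 bases apart. The junction chr17:34127561-34128126 had 26, 16 and 27 reads in AKR/J d17 and 0 in Cav1-null d15, and the junction chr17:34127561-34128154 had 0 reads in AKR/J d17 and 82, 76 and 88 in Cav1-null d15. All 69 reads and all 246 reads over these junctions followed this division.

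In Nf2, the gene of the tumour suppressor merlin, on chromosome 11, a donor site 16 bases downstream of the neighbour's was used in AKR/J. The junction chr11:4718274-4732170 had 57, 22 and 33 reads in AKR/J d17 and 0 in Cav1-null d15, beside 44, 57 and 42 reads and 76, 86 and 59 reads over the neighbour chr11:4718274-4732186. That made 43.9% of the reads over both junctions, and the level of the gene itself differed by 0.06 on the log2 scale and was not called. In Itgb1bp1, which encodes a regulator of integrins, on chromosome 12, the AKR/J junction chr12:21320959-21321379 had 15, 16 and 12 reads against 0, or 13.7% of the reads over it and its neighbour at chr12:21320959-21321419. In Abhd14a on chromosome 9, the division went the other way: the junction chr9:106321506-106324729 had 60, 56 and 58 reads in Cav1-null d15 and 0 in AKR/J d17, and its neighbour chr9:106323029-106324729 had 23, 23 and 33 reads in AKR/J d17 and 0, 1 and 0 in Cav1-null d15.

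The sites are shown as the GRCm39 reference has them, which is close to the background of Cav1-null and not the AKR/J genome. Each line holds 10 exonic and 20 intronic bases on the strand of the gene, 5′ to 3′, with the first or last pair of intron bases in capitals, and each is shown because its use divided the groups or because it is the alternative.
BC051226 donor used in AKR/J, chr17:34128107-34128136, minus strand: ccctaggaggGTaaggaatctcctgcaggt
BC051226 donor used in Cav1-null, chr17:34128135-34128164, minus strand: gtcgcatcggGTaagaccggtccctccacc
Nf2 donor used in AKR/J, chr11:4732151-4732180, minus strand: gaaatgtgagGTtggcatctagtttcctca
Nf2 donor used in both, chr11:4732167-4732196, minus strand: cattaaaaagGTacctgaaatgtgaggttg
Itgb1bp1 donor used in AKR/J, chr12:21321360-21321389, minus strand: agatgaaatgGTgagaccgtgatctttcac
Itgb1bp1 donor used in both, chr12:21321400-21321429, minus strand: taacagcctgGTgagagatcttggtttgtt
Abhd14a acceptor used in Cav1-null, chr9:106321496-106321525, minus strand: tcttcccctttctcctccAGgttctatggt
Abhd14a acceptor used in AKR/J, chr9:106323019-106323048, minus strand: ctcttccacccgcagtgcAGtctgcatcag
All 8 sites hold the GT or AG that introns usually begin or end with, and the Nf2 site used in AKR/J is the one among them that the GENCODE vM39 annotation does not list. The bases that AKR/J carries at these sites were not analysed here.

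In 6 other genes the Cav1-null junction took a smaller share than in Abhd14a. It made 60.5% of the reads over the junction and its neighbour in Arhgef40, 59.8% in Mbtd1, 29.2% in Slc30a9, 25.7% in Tmem44, 19.05% in Zfp511 and 7.83% in Dctn6, and 0 reads in AKR/J d17 in each. Over those 6 genes the reads at the shared site in AKR/J d17 ran from 67 in Mbtd1 to 893 in Dctn6. Of the remaining genes, Cep63 and Anapc13 are annotated on opposite strands of chromosome 9 and share a splice site. The Cav1-null junctions listed for them had 727 and 52 reads in Cav1-null d15, where a neighbour at the shared site had 0. Read on the plus strand, that of Anapc13, the sites that differ begin with GT, and on the minus strand they read AC.

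**Figure D5:**
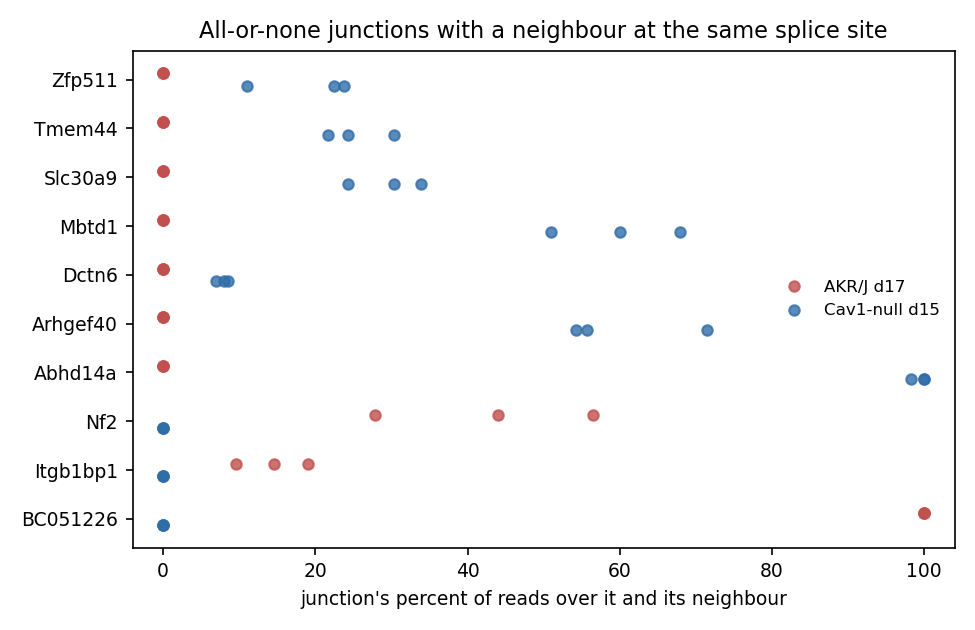
Share of a junction in the reads over it and its neighbour at the same splice site, in percent, for each AKR/J d17 (red) and Cav1-null d15 (blue) library in 10 genes. The junctions of BC051226, Itgb1bp1 and Nf2 had reads in AKR/J d17 only and those of the other 7 genes in Cav1-null d15 only, with 100% against 0% in BC051226.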

How the data were processed

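Fetal brain mRNA of the 27 libraries was analysed from the gene table and the splice junction table. The authors checked reads with FastQC, trimmed them with cutadapt and fastp and mapped them to GRCm39 with STAR. The deposited gene table holds unnormalised read counts for each Ensembl gene, and the deposited junction table holds counts of reads spanning each junction, after the authors' filter. The counting tool, its use of strand and its treatment of reads with several matches are not given in the sources used here. Of 55416 genes, 54749 matched GENCODE vM39 (GRCm39), which gave coordinates.

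Libraries were grouped by strain and day of their labels. Each comparison was fitted on its own libraries in R 4.3.3 with edgeR 4.0.16 (filterByExpr, TMM, quasi-likelihood test, p adjusted by Benjamini-Hochberg, threshold 0.05). Standard errors were taken from the fold change and its F statistic. Nothing in the labels says whether fetuses of a group came from different litters, so p-values measure the spread between these samples. Junctions were counted once over transcripts. The fit was tested on simulated counts, where the share of false calls came out above the nominal threshold and part of the smaller changes was missed. Python 3.11.15 was used for tables and plots.

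The pair, its gene lists and the comparisons were chosen with earlier results of these data known. Named genes followed a rule: called in the pair and the same way in AKR/J d15 against Cav1-null d12, average log2 CPM of at least 2, no overlap between groups, no model-number, Rik or pseudogene symbols, 10 per direction, plus called genes within 5 Mb of Cav1 and, from each list, defining members and those with the largest change. Parent genes of copies, the strain check and the junction examples were chosen after values were seen, and other list members are named as examples. The alternatives were RLE size factors, library sizes alone, the DESeq2 1.42.0 Wald test, no filter, at least 10 reads in every library, all 27 libraries in 1 model, each replicate left out and a replicate block. The 2 libraries low in Xist, and libraries outside the pair, were left out as additions made after seeing the data.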

Additional observations from a re-analysis of the deposited data

How the results depend on the processing

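The pair gave 2983 calls, which became 674 when all 27 libraries entered the fit and 792 when a 2-fold difference was also required, and ran from 1894 to 3814 without single libraries. The replicate block gave 2821, and the same-numbered libraries of the pair did not deviate together (correlations of -0.084, -0.089 and -0.017), so the numbers do not pair them. Genes called the same way in the earlier pair (663) numbered 1281 with DESeq2, 242 with the replicate block, 112 without the 2 libraries low in Xist and 257 to 1258 without single libraries. Those called in C57BL/6J between d15 and d17 (812) numbered 139 with all 27 libraries and 112 to 1145 without single libraries. Those called between C57BL/6J and Cav1-null (4) numbered 337 with DESeq2, 267 without a filter, 0 with at least 10 reads in every library, 154 with all 27 libraries and 3 to 462 without single libraries. The interaction (0) gave 32 calls with DESeq2, 18 without a filter, 1 with library sizes alone and 0 to 5 without single libraries. The 286 all-or-none junctions became 482 to 506 with 2 libraries left in a group, which relaxes the condition. The correlation of the pair (0.986) was 0.976 on log2(CPM + 0.1). The causes of these changes were not tested, apart from the conditions that each alternative sets. Of 85 named genes, none reversed under any alternative, while 51 lost the call with all 27 libraries in 1 model, 7 with the replicate block, 5 without AKR/J d17 replicate 1 and 15 to 20 without each of the other 5 libraries of the pair. With 3 libraries per group, small differences and genes at a few reads are at the limit of this depth.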
